A study of Mus musculus with 4 samples.

Results

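The 9 genes of the MAP kinase cascade studied here were followed through their circular RNAs (circRNAs) in mouse articular chondrocytes in primary culture, the cartilage-forming cells of the joint. The genes were Map4k3, Map4k4, Map4k5, Map3k3, Map3k4, Map3k5, Map3k20, Map2k5 and Mapk14. A circRNA was counted with a gene when both ends of its back-splice junction, the join that closes the RNA loop, lay inside the RefSeq span of that gene in mm10 with a tolerance of 1 bp. This gave 163 circRNAs of 40909 in the series, in 9 of 6930 host genes. The cells of 2 libraries received 10 ng/ml recombinant human interleukin-1β (IL-1β) for 24 h, a cytokine of joint inflammation, and 2 further libraries were controls. All cells were at passage 1 to 3 and grown with 10% fetal bovine serum, and no strain, age or allele is given in the labels. Control labels repeat the treatment text, and the group of each library therefore comes from its source label. Whether libraries of 1 group came from different animals or cultures is not stated, so every p-value here reflects the spread of these libraries alone, which may be technical.

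MAP kinase cascades pass signals from receptors and from stress through kinases that phosphorylate each other in turn: MAP4Ks act on MAP3Ks, MAP3Ks on MAP2Ks and MAP2Ks on the MAP kinases p38, JNK, ERK and ERK5. In chondrocytes IL-1β is known to activate p38 and JNK, which lead to matrix protease and inflammatory gene expression. That activation is by phosphorylation, which junction reads do not measure. A circRNA made from a kinase gene is a product of back-splicing and does not show the level of the linear mRNA or of the kinase.

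The libraries held between 895774 and 1203855 junction reads, the unit of all values here. Reads that cross a back-splice junction do not scale with the length of the RNA. CPM is junction reads per 1000000 reads of a library after scaling by edgeR's TMM factors, and a count of 3 reads corresponded to between 2.58 and 3.36 CPM on the host scale. With so few reads a value of 0 may be a circRNA below detection, and bounds set from 3 reads per library hold for counting error alone, as PCR copies are not separate molecules. Of 16 chondrocyte marker genes, 4 had circRNA reads, mainly Sox5 and Sox6. Col2a1, Acan, Sox9 and Comp had 0, so the labelled cell type could not be checked from them. Chondrocyte markers summed to 272 and 329 CPM under IL-1β, against 413 and 245 CPM in controls. Of 9 fibroblast and synovial markers 5 had reads, summing to 89.6 and 73.7 CPM under IL-1β, against 143 and 221 CPM in controls. This list was lower in both IL-1β libraries, and its part in the results below was not tested. All 6 macrophage and leukocyte markers were at 0. Of the 4 endothelial and 4 muscle markers, 1 each had reads, up to 8.96 CPM in IL-1β 1 alone and 6.01 CPM in control 1 alone. In RNA from a whole culture, fewer cells of a type and less RNA per cell cannot be told apart.

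Map2k5 and Map4k3 had the lowest p of the 9 genes above and below 0, and the 250 bases before the start that the promoter table gives for each are shown for that reason. Sequences are from RefSeq in GRCm38.p6, read 5′ to 3′ on the strand of the gene, with the GC box in capitals. The Map2k5 window is chr9:63377903-63378152 on the minus strand and the Map4k3 window is chr17:80728026-80728275 on the minus strand. Both windows lie inside the RefSeq span of their gene, whose 5′ end is further upstream.
Map2k5: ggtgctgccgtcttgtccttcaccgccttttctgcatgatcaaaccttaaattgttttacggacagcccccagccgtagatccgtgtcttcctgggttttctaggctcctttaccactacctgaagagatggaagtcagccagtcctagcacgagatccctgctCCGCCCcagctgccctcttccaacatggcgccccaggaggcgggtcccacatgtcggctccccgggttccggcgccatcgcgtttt
Map4k3: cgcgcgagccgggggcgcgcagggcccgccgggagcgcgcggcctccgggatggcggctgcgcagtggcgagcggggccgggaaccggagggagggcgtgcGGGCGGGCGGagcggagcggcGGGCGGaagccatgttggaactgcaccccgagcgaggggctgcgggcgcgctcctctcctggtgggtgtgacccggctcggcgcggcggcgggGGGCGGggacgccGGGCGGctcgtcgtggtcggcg
The GC box, bound by the SP and KLF families, was searched as GGGCGG on both strands and matched once in the Map2k5 window and 5 times in the Map4k3 window, where a pair of matches overlap. Among the 8 genes with an entry in the promoter table, 6 had at least 1 such match in 10 windows of 250 bases, and 32.7% of 32851 windows over all genes held one. The AP-1 motif TGANTCA, an NF-κB motif (3 G, any 2 bases, 3 T, 2 C) and the cAMP response element TGACGTCA matched in 0 of the 10 windows, against 6.75%, 1.41% and 1.55% of all windows. The GC content was 58.4% for Map2k5 and 82.4% for Map4k3, and the median of all windows was 52.4%. These matches describe the letters in the windows and say nothing about binding.

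The 9 hosts differed widely in how much circRNA they gave. Averaged over the 4 libraries, Map4k3 gave 630 CPM, Map3k3 622, Map2k5 396, Map3k20 167, Map4k4 153, Mapk14 144, Map4k5 79.1, Map3k4 39.3 and Map3k5 20.9 CPM. Every library had more reads from each of the first 3 genes than any library had from the other 6, from 297 CPM up against 226 CPM down. Neighbours within the first 3, and within the next 3, overlapped across libraries. Per 10 kb of gene span the order changed: Map3k3 led with 86.3 CPM per 10 kb, before Map4k3 with 42.5, Mapk14 with 25.3, Map2k5 with 18.2, Map4k4 with 12.2, Map3k20 with 10.6, Map4k5 with 8.85, Map3k4 with 4.31 and Map3k5 with 1.00. By summed reads Map4k3 stood at place 314 and Map3k5 at place 3185 of the 6930 hosts.

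**Figure D1:**
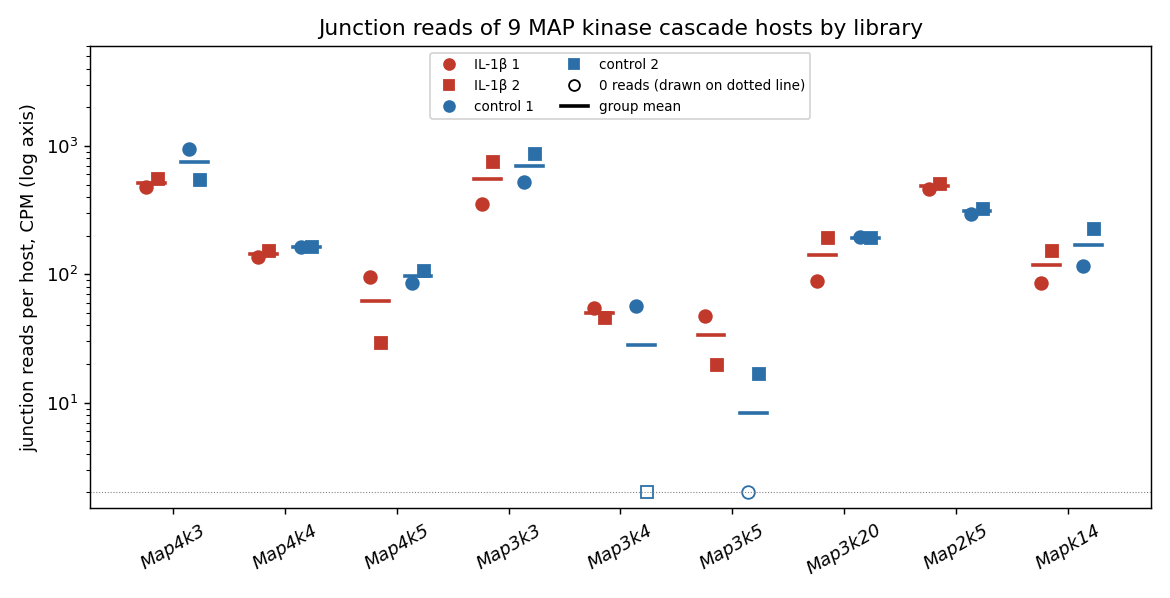
Junction reads summed per host in CPM, on a log axis, for each library (red, IL-1β; blue, control; bars, group means; open symbols, 0 reads). Map2k5 stood at 459 and 506 CPM under IL-1β, above both controls at 297 and 324 CPM, while 5 of the other 8 hosts overlapped between the groups.

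The question of the study was which circRNAs differ under IL-1β. Under IL-1β the summed circRNAs of Map2k5 were 1.56-fold higher, with both libraries above both controls. Map4k3, Map3k20 and Mapk14 were 1.44-fold, 1.38-fold and 1.44-fold lower on average, Map4k5 1.55-fold, Map3k3 1.25-fold and Map4k4 1.13-fold lower, while the sparse hosts Map3k4 and Map3k5 had higher means. None of these differences passed the test. In all, log2 changes were above 0 for 3 hosts and below 0 for 6. Their median was -0.32, against a median of -0.03 over 4879 hosts tested. By edgeR's quasi-likelihood test 0 of the 9 passed an adjusted p of 0.05, as did 0.0% of all tested hosts, and DESeq2 passed 0 of the 9. Only Map2k5 had an unadjusted p under 0.05 in edgeR, on the higher side. Of all tested hosts 4.55% did in either direction and 2.09% on the higher side. Of the 2209 hosts with at least 200 reads, to which Map2k5 belongs, 7.24% did in either direction. Both IL-1β libraries lay above both controls in 2 of the 9 hosts, Map2k5 and Map3k5, against 17.0% of all tested hosts. They lay below both controls in 2, Map4k4 and Map3k20, against 18.9%. In Map3k5, IL-1β 2 and control 2 had 19 reads each, and only scaling set them apart, at 19.7 and 16.7 CPM. With 2 libraries a group an exact permutation test of a single value cannot go below 0.333, so none is given.

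Of the 163 circRNAs, 67 had at least 20 reads over the libraries and were tested, and these held 90.9% of the reads. By the same test 0 of the 67 passed, against 0.0196% of 15333 tested circRNAs, and DESeq2 passed 0 of the 67. On simulated counts edgeR missed most 2-fold and 4-fold changes in hosts and all of those in circRNAs, so these counts of 0 do not show that values were alike. An unadjusted p under 0.05 was reached by 6 of the 67, 5 with higher values under IL-1β and 1 with lower, all in Map2k5 or Map3k3. Over all tested circRNAs the share was 3.44%, and 1.83% on the higher side. Among the higher ones, circRNA.39789, circRNA.39778 and circRNA.2480 had 0 reads in both controls, so they reached 20 reads through IL-1β libraries alone. Of these, circRNA.2480 was read in IL-1β 2 only, and the lower one, circRNA.2483, rested on control 2. The tally is therefore no sign of a direction in these genes. Log2 changes were positive for 26 and negative for 41, with a median of -0.38, against -0.05 over all tested circRNAs. Groups did not overlap for 22 of the 67: 14 were higher in both IL-1β libraries and 8 lower, against 16.4% and 17.2% of all tested circRNAs.

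**Figure D2:**
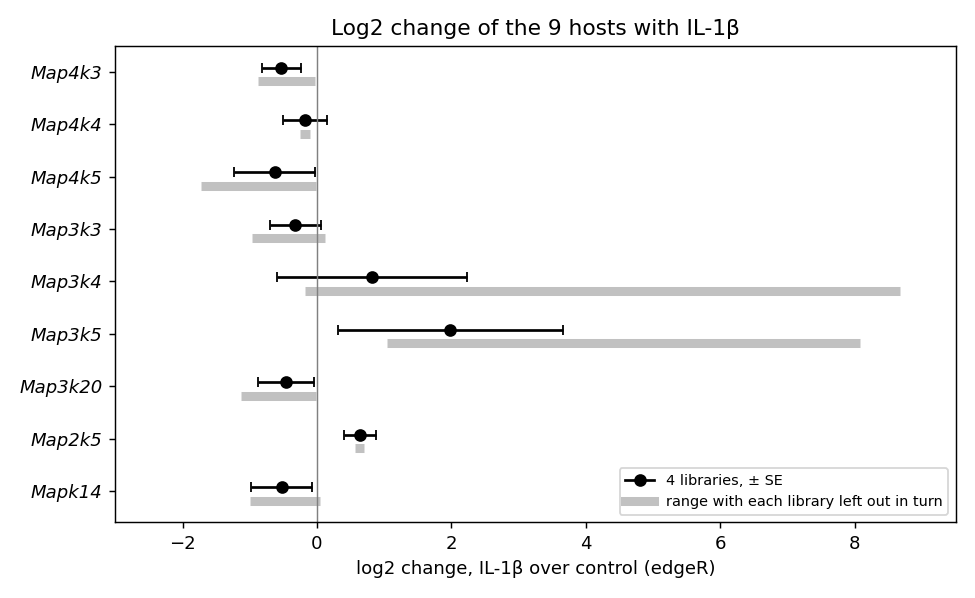
Log2 change of each host, IL-1β over control, with its standard error from edgeR (black), and the range of the same value when each library was left out in turn (grey). The Map2k5 range runs from 0.56 to 0.70, while those of Map3k3, Map3k4 and Mapk14 cross 0.

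Map4k3, whose product GLK is a MAP4K of the germinal centre kinase family, lies at chromosome 17, 80580513 to 80728806, minus strand. Its circRNAs had 430 and 529 reads under IL-1β, against 1103 and 615 in controls, or 516 ± 47.7 CPM under IL-1β, against 744 ± 287 CPM in controls (mean ± SD, n = 2 each), 1.44-fold lower. The groups overlapped, since control 2 stood at 541 CPM and IL-1β 2 at 549 CPM. The log2 change was -0.53 ± 0.29 (SE, adjusted p = 0.882 in edgeR), and without control 1 it was -0.03. A single circRNA whose ends lie 2060 bp apart on the genome, circRNA.14491 (80653862 to 80655921), held 55.8% of the reads of the 36 circRNAs. It had 224 and 250 reads under IL-1β, against 696 and 323 in controls, 264 ± 7.46 CPM under IL-1β, against 453 ± 247 CPM in controls, with both IL-1β libraries below both controls, although control 2 at 278 CPM was close to IL-1β 2 at 270 CPM. The log2 change of the gene without this circle was -0.20. Among 14 tested circles 5 had positive and 9 negative log2 changes. A pair of lesser ones had 0 reads in both controls: circRNA.14475 had 10 and 10 reads under IL-1β, at least 4.23-fold higher, and circRNA.14464 had 20 reads in IL-1β 2 alone.

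**Figure D3:**
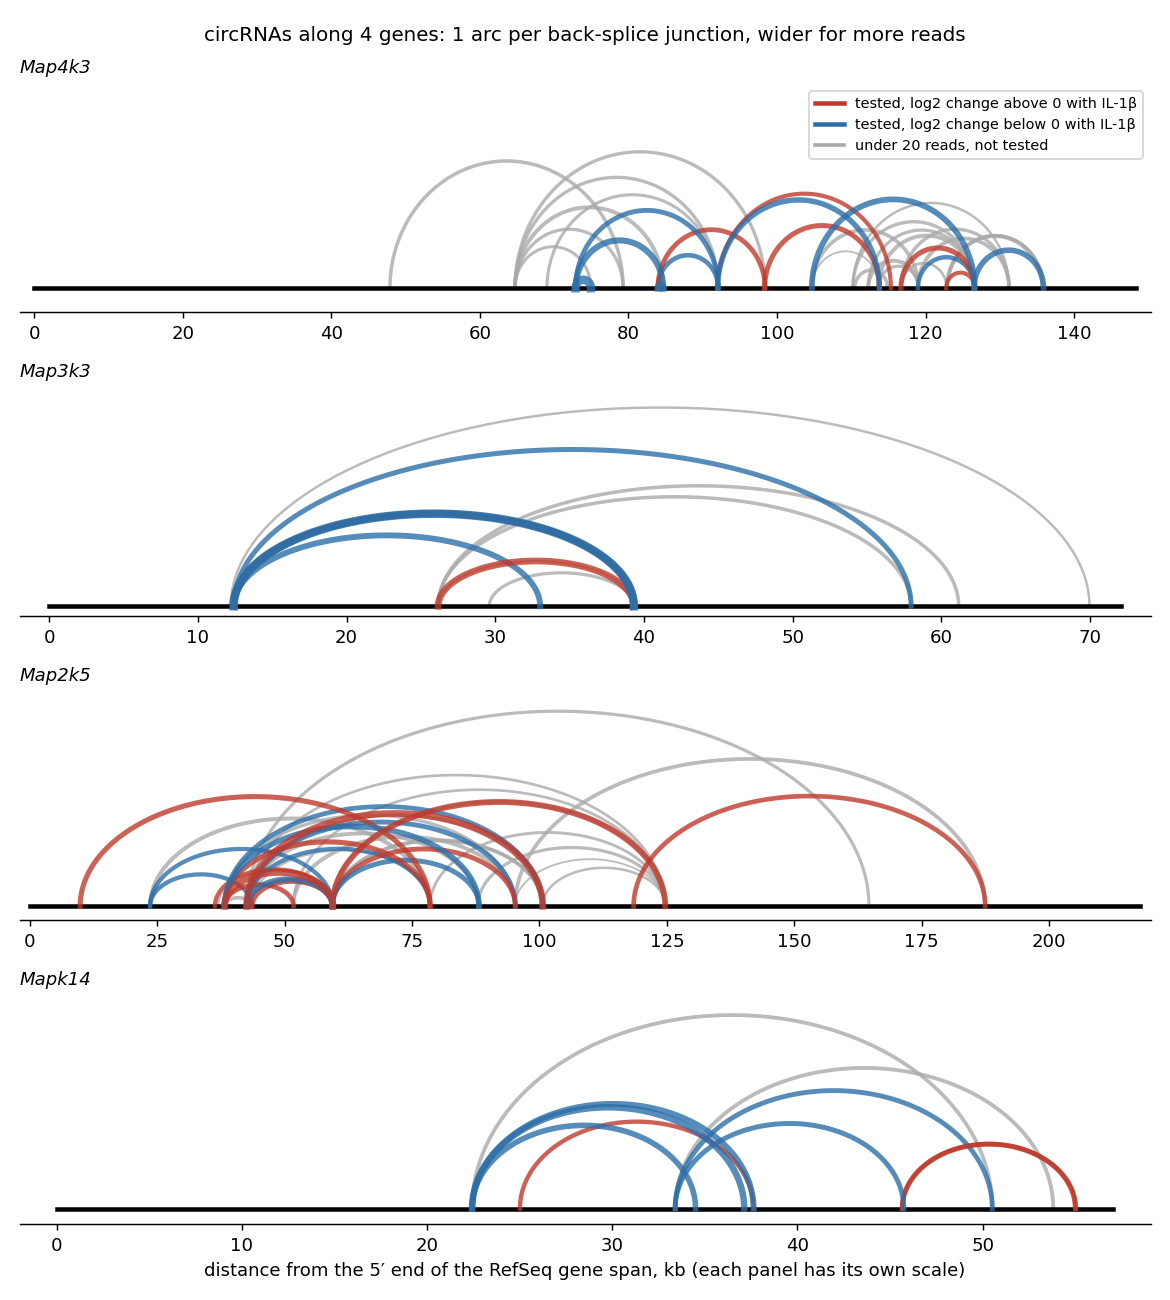
Each arc joins the ends of 1 back-splice junction of Map4k3, Map3k3, Map2k5 or Mapk14, placed by distance in kb from the 5′ end of the gene, with wider arcs for more reads (red, log2 change above 0 under IL-1β; blue, below 0; grey, under 20 reads and not tested). Map2k5 had 10 red and 8 blue arcs, many from shared ends, and Map4k3 had 5 red and 9 blue.

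Map4k4, whose product HGK acts upstream of JNK and in cell migration, lies at chromosome 1, 39900902 to 40026310, plus strand, and had the group means nearest to each other of the 9 hosts. Its circRNAs had 122 and 145 reads under IL-1β, against 189 and 185 in controls, or 144 ± 9.80 CPM under IL-1β, against 162 ± 0.330 CPM in controls (n = 2 each). Both IL-1β libraries lay below both controls, by a log2 change of -0.18 ± 0.32 (adjusted p = 1.00 in edgeR) that stayed between -0.25 and -0.11 with each library left out. The most-read of its 24 circRNAs, circRNA.19304 (39973927 to 39990299), had 27 and 23 reads under IL-1β, against 48 and 47 in controls, a log2 change of -0.58 ± 0.67. A lesser circle, circRNA.19305, had 7 and 11 reads under IL-1β, against 0 and 0 in controls, at least 3.78-fold higher.

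Map4k5, a further MAP4K that has been placed upstream of JNK, lies at chromosome 12, 69803757 to 69893163, minus strand, and had 8 circRNAs. They had 85 and 28 reads under IL-1β, against 100 and 121 in controls, or 62.2 ± 46.8 CPM under IL-1β, against 96.1 ± 14.5 CPM in controls (n = 2 each). The IL-1β libraries differed 3.28-fold from each other, and the groups overlapped. The log2 change was -0.63 ± 0.61 (adjusted p = 1.00 in edgeR), -1.72 without IL-1β 1 and -0.01 without IL-1β 2. Of the 8 circRNAs, 5 also lie inside a noncoding gene, among them circRNA.6235 and circRNA.6233 with 39.8% and 31.7% of the gene's reads. With these 5 left out the log2 change was -0.33, which rested on few reads. The most-read circRNA left, circRNA.6240, had 0 and 11 reads under IL-1β, against 0 and 18 in controls. The most-read of all 8, circRNA.6235 (69822803 to 69828066), had 29 and 7 reads under IL-1β, against 60 and 37 in controls. A circRNA that shares its start, circRNA.6236, had 19 reads in IL-1β 1 alone.

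Map3k3 encodes MEKK3, a MAP3K that can activate MEK5 as well as p38 and JNK, and lies at chromosome 11, 106084587 to 106156656, plus strand. Its circRNAs had 317 and 721 reads under IL-1β, against 613 and 974 in controls. This was 552 ± 278 CPM under IL-1β, against 691 ± 234 CPM in controls (n = 2 each), with overlapping groups. The log2 change was -0.32 ± 0.38 (adjusted p = 1.00 in edgeR), 0.11 without IL-1β 1 and 0.07 without control 2. Libraries of 1 group differed by 2.11-fold under IL-1β and 1.63-fold in controls, more than the 1.25-fold between the group means.

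The reads of Map3k3 fell on near-identical junctions, and IL-1β 2 and control 2 each held most reads of 1 of them. The most-read junction, circRNA.2481 (106096991 to 106123906), had 202 and 383 reads under IL-1β, against 486 and 436 in controls. The junction circRNA.2480 shares its start and ends 4 nt earlier, and it had 189 reads in IL-1β 2 and 0 in the other 3 libraries. The junction circRNA.2483 lies 6 nt further at both ends, so its span is the same 26916 bp, and it had 15 and 24 reads under IL-1β, against 21 and 409 in controls. In control 2 it held 42% of the gene's reads, against between 3.33% and 4.73% in the other libraries. Whether these are separate junctions was not tested, and the bases at their ends were not analysed here.

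Summing near-identical junctions turned the sign for the main Map3k3 circle. With junctions within 5 nt summed, circRNA.2481 and circRNA.2480 together had 202 and 572 reads under IL-1β, against 486 and 436 in controls, a log2 change of 0.07 ± 0.45 in place of -0.33 ± 0.34 for circRNA.2481 alone. With junctions within 6 nt summed, a setting chosen after seeing the data, the 3 together had 217 and 596 reads under IL-1β, against 507 and 845 in controls, a log2 change of -0.41 ± 0.47 (adjusted p = 1.00 in edgeR). The log2 change of -3.09 ± 1.21 for circRNA.2483 (adjusted p = 0.886 in edgeR) rested on control 2, and without that library it was 0.20. The value of 9.70 ± 3.31 for circRNA.2480 (adjusted p = 0.886 in edgeR) rested on IL-1β 2, the 1 library that held it.

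**Figure D4:**
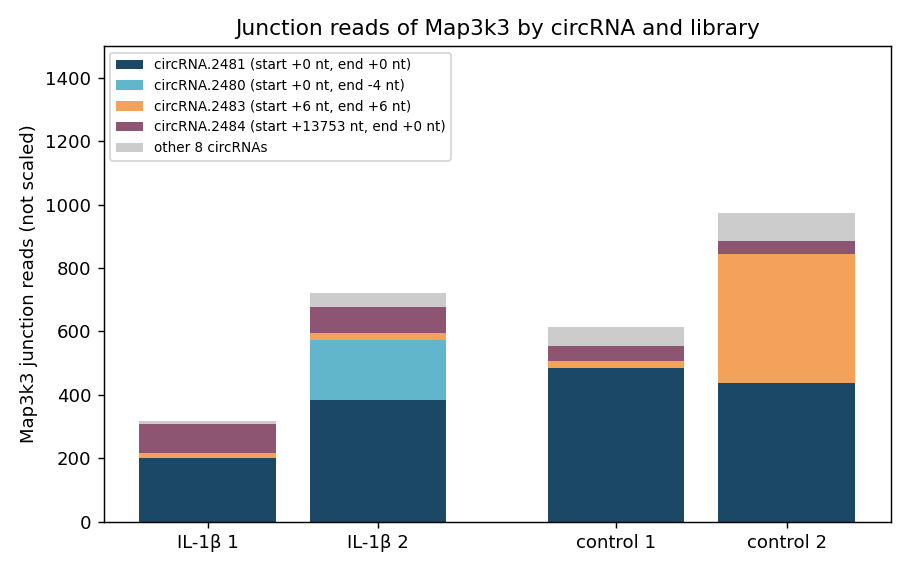
Junction reads of Map3k3, not scaled for depth, by library and circRNA, with the offset of each start and end from circRNA.2481 in nt. The 189 reads of circRNA.2480 are all in IL-1β 2 and 409 of the 469 reads of circRNA.2483 are in control 2.

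A Map3k3 circle with a shorter distance between its ends had higher values under IL-1β. The junction circRNA.2484 (106110744 to 106123906) starts 13753 nt downstream of circRNA.2481 and shares its end. It had 91 and 82 reads under IL-1β, against 46 and 40 in controls, or 96.9 ± 11.9 CPM under IL-1β, against 38.0 ± 4.93 CPM in controls, 2.55-fold higher with no overlap. Its log2 change was 1.35 ± 0.45 (adjusted p = 0.886 in edgeR), and 1.37 with its own 6-nt neighbour summed. It made up 28.7% and 11.4% of the gene's reads under IL-1β, against 7.5% and 4.11% in controls. In the other direction, circRNA.2482 (106096991 to 106142558) had 0 reads under IL-1β, against 11 and 37 in controls, at least 6.23-fold lower.

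Map3k20 encodes ZAK, a MAP3K of the ribotoxic stress response, and lies at chromosome 2, 72285637 to 72442610, plus strand. Its 19 circRNAs had 79 and 185 reads under IL-1β, against 226 and 219 in controls, or 140 ± 73.2 CPM under IL-1β, against 193 ± 0.985 CPM in controls (n = 2 each). Both IL-1β libraries lay below both controls, but IL-1β 2 at 192.1 CPM was next to control 2 at 192.6 CPM, and without IL-1β 1 the log2 change was -0.01 in place of -0.46 ± 0.41 (adjusted p = 1.00 in edgeR). The most-read circle, circRNA.23609 (72371727 to 72398425), had 0 and 27 reads under IL-1β, against 40 and 66 in controls. Some circles were held by 1 library each: circRNA.23606 had 30 reads in control 1, circRNA.23605 had 23 in control 2 and circRNA.23610 had 18 in IL-1β 2.

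The other MAP3Ks had the fewest reads of the 9 hosts. Map3k4, whose product MEKK4 acts upstream of p38 and JNK (chromosome 17, 12227621 to 12318796, minus strand), had 49 and 44 reads under IL-1β, against 66 and 0 in controls over 9 circRNAs. None of these was read in control 2, the library with the most junction reads. Control 2 held fewer circRNAs of the whole series than control 1, 17960 against 20662. The log2 change of 0.82 ± 1.41 turned to -0.17 without control 2. Its most-read circle, circRNA.12610 (12270863 to 12278111), had 7 and 21 reads under IL-1β, against 7 and 0 in controls. Map3k5, whose product ASK1 is activated by oxidative stress (chromosome 10, 19934101 to 20142750, plus strand), had 42 and 19 reads under IL-1β, against 0 and 19 in controls. Each of its 8 circRNAs was read in 1 library only and none reached 20 reads, so none was tested singly. The most-read one, circRNA.651 (20067829 to 20082468), had 16 reads, all in IL-1β 1. The log2 change of 1.98 ± 1.68 for the gene (adjusted p = 0.989 in edgeR) therefore compared different circles in each library, and it ran from 1.04 without control 1 to 8.08 without control 2.

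Map2k5 encodes MEK5, the MAP2K that activates ERK5, and lies at chromosome 9, 63163768 to 63381682, minus strand. Its circRNAs had 410 and 487 reads under IL-1β, against 346 and 368 in controls, although the IL-1β libraries were smaller. This was 483 ± 32.7 CPM under IL-1β, against 310 ± 18.8 CPM in controls (n = 2 each), 1.56-fold higher, with both IL-1β libraries above both controls. The log2 change was 0.64 ± 0.23, edgeR adjusted p = 0.882 and unadjusted p = 0.0258. DESeq2 gave an adjusted p of 0.109. The value ran from 0.56 to 0.70 as each library was left out, and without the most-read circRNA it was 0.48. Scaled by the median ratio of counts to the deposited SRPBM values in each library it was 0.44, a scaling that took the median of all tested hosts to -0.24.

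Map2k5 had the most circRNAs of the 9 hosts, 37, of which 18 were tested, 10 with a positive and 8 with a negative log2 change. The most-read one, circRNA.39794 (63322203 to 63343456), had 103 and 110 reads under IL-1β, against 45 and 56 in controls. It stood at 119 ± 0.351 CPM under IL-1β, against 44.4 ± 5.46 CPM in controls, 2.68-fold higher, with a log2 change of 1.42 ± 0.40 (adjusted p = 0.886 in edgeR). It took 25.1% and 22.6% of the gene's reads under IL-1β, against 13.0% and 15.2% in controls, so its share was also higher in both IL-1β libraries. A circRNA that shares its 63322203 end, circRNA.39792, had 50 and 35 reads under IL-1β, against 12 and 27 in controls, with a log2 change of 1.48 ± 0.80.

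Further Map2k5 circRNAs had reads in each IL-1β library but 0 in each control. The circle circRNA.39789 (63303121 to 63343456) had 33 and 18 reads under IL-1β, against 0 in both controls, at least 10.9-fold higher against 3 reads per control library. For circRNA.39778 (63286399 to 63322267) the reads were 25 and 16 under IL-1β, against 0 in both controls, at least 8.73-fold higher. For circRNA.39798 (63329908 to 63343456) they were 11 and 21 under IL-1β, against 0 in both controls, at least 6.69-fold higher. The reverse pattern, reads in both controls but not under IL-1β, occurred for 0 of the 37 Map2k5 circRNAs. Both patterns were rare over all 40909 circRNAs, with 1004 read in both IL-1β libraries alone and 1111 in both controls alone. A difference between 3 and 0 of 37 was not tested. Single libraries also held circRNAs of their own: circRNA.39796 had 20 reads in IL-1β 1 alone, circRNA.39801 had 23 in control 2 alone and circRNA.39788 had 21 in control 1 alone.

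The circles of Map2k5 shared their ends. The 63343456 end, the 5′ end of the loop on this strand, belonged to 7 circRNAs and 33.3% of the gene's reads. Summed over these, reads were 158 and 187 under IL-1β, against 85 and 106 in controls, or 192 ± 13.4 CPM under IL-1β, against 84.0 ± 10.5 CPM in controls. The next such end, 63339121, also belonged to 7 circRNAs and held 29.6% of the reads. Its sums were 71 and 115 reads under IL-1β, against 139 and 152 in controls, or 103 ± 29.7 CPM under IL-1β, against 128 ± 4.09 CPM in controls. The first sum lay above both controls in both IL-1β libraries. The second lay below both, but IL-1β 2 at 124.1 CPM was next to control 1 at 125.3 CPM. These sums were chosen after their values were seen and not tested. At the other side of the loop, 63322203 was used by 6 circRNAs with 37.8% of the reads, at 209 ± 8.75 CPM under IL-1β, against 103 ± 52.2 CPM in controls. The circle circRNA.39794 joins 63322203 to 63343456, with 119 CPM under IL-1β, against 44.4 CPM in controls. It is counted in the sums of both these ends, which are therefore not separate observations.

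Mapk14 encodes p38α, the MAP kinase at the end of the p38 branch, and lies at chromosome 17, 28691342 to 28748405, plus strand. Its 10 circRNAs had 76 and 146 reads under IL-1β, against 134 and 257 in controls, or 118 ± 47.0 CPM under IL-1β, against 171 ± 78.5 CPM in controls (n = 2 each), 1.44-fold lower with overlapping groups. The log2 change was -0.52 ± 0.46 (adjusted p = 0.996 in edgeR), and without control 2 it was 0.04. The most-read circle, circRNA.13055 (28713774 to 28728471), had 23 and 34 reads under IL-1β, against 28 and 110 in controls, so control 2 alone stood apart. Its log2 change of -0.92 ± 0.77 was 0.33 without control 2. Of its circRNAs 1 was read in a single library.

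Most circRNAs of these genes were rare. Of the 163, 96 (58.9%) were read in 1 library only, close to 58.6% over all circRNAs, and 23 (14.1%) in all 4, against 16.8%. Those 23 held 66.8% of the members' reads, against 85% for all circRNAs. The libraries held 61 and 85 of the 163 under IL-1β, against 90 and 61 in controls. Libraries of 1 group thus differed more than the group means. Over the whole series they held 17649 and 19317 circRNAs under IL-1β, against 20662 and 17960 in controls. Disagreement between libraries was also series-wide: the chi-square per host was 23.3 between the controls and 10.6 between the IL-1β libraries. Pairs across the groups ran from 16.1 to 21.9. Of the 163, 5 were read in each IL-1β library but neither control, 3 of them from Map2k5. Another 1, from Map3k3, was read in both controls and neither IL-1β library. Over all 40909 circRNAs these numbers were 1004 and 1111. With at least 5 reads required in a library, they were 6 and 2 of the 163, against 812 and 1011 of the 40909. These differences were not tested.

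**Figure D5:**
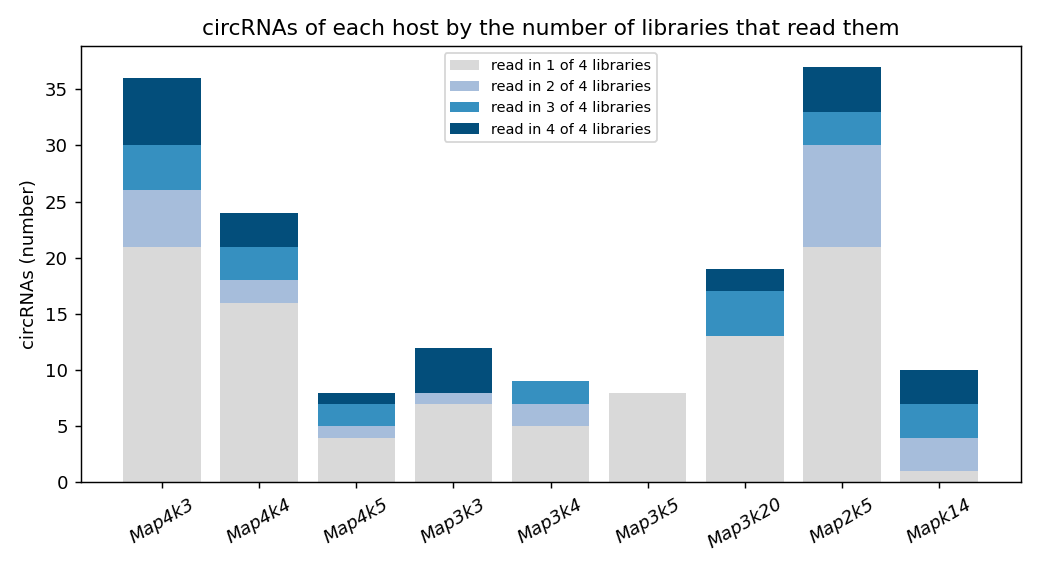
Number of circRNAs of each host, divided by how many of the 4 libraries read them. Of the 37 Map2k5 circRNAs 21 were read in 1 library, all 8 of Map3k5 were, and 1 of 10 of Mapk14 was.

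The circles also shared features of position. All 163 lay on 1 strand per gene, which was the RefSeq strand for the 8 genes where the promoter table gives one. Their median distance between ends was 17123 bp, from 714 to 122129 bp, against a median of 10570 bp over all circRNAs. The shortest was a circle of Map4k3 and the longest belonged to Map2k5, whose circles had a median span of 41360 bp. Ends were reused: of 166 distinct ends in the 9 genes, 83 belonged to at least 2 circRNAs, 16 of 25 in Map2k5 and 21 of 32 in Map4k3 but 1 of 15 in Map4k5. The end nearest to the 5′ end of the RefSeq span was 9.90 kb away in Map2k5, the lowest of the 9 genes, and 66.5 kb away in Map3k5, the highest.

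Other genes of the cascade were taken from a list of 89 by role. Of these 51 had a circRNA and 37 were tested, and none passed an adjusted p of 0.05 in edgeR or in DESeq2, with 3 at an unadjusted p under 0.05, against 4.55% of all tested hosts. Log2 changes were positive for 15 and negative for 22, with a median of -0.11, against -0.03 over all tested hosts. Both IL-1β libraries lay above both controls for 5 and below for 8 of the 37, against 17.0% and 18.9% of all tested hosts.

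Among MAP4Ks and related kinases, 1 of 5 tested was positive. Map4k2, a MAP4K, had 15 and 6 reads under IL-1β, against 93 and 58 in controls (log2 change -2.50 ± 0.82, adjusted p = 0.882 in edgeR). The most-read was Taok1, a kinase upstream of p38, at 445 ± 68.9 CPM under IL-1β, against 348 ± 102 CPM in controls. Among MAP3Ks, 2 of 7 were positive. Braf, a kinase at the head of the ERK branch, stood at 541 ± 2.90 CPM under IL-1β, against 730 ± 2.69 CPM in controls, below both controls in both IL-1β libraries, with a log2 change of -0.43 ± 0.21 (adjusted p = 0.882 in edgeR). Among MAP2Ks, 2 of 3 were positive: Map2k1, an activator of ERK, stood at 719 ± 4.36 CPM under IL-1β, against 653 ± 178 CPM in controls (log2 change 0.14, and -0.02 with SRPBM scaling), and Map2k2 at 98.8 ± 28.2 CPM under IL-1β, against 64.3 ± 57.0 CPM in controls.

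Among MAP kinases, 1 of 3 tested was positive. Mapk12, which encodes p38γ, had 0 reads under IL-1β, against 30 and 14 in controls, at least 5.88-fold lower. The 3 tested phosphatase hosts had log2 changes above 0, as did 48.0% of all tested hosts. Of the others, named after their values were seen, Dusp6 rested on 22 reads in IL-1β 1 alone, and Dusp10 had 36 and 11 reads under IL-1β, against 4 and 0 in controls. The most-read was Dusp16, a phosphatase of JNK, with 916 and 665 reads under IL-1β, against 552 and 654 in controls, 858 ± 238 CPM under IL-1β, against 524 ± 71.7 CPM in controls (log2 change 0.71 ± 0.26, adjusted p = 0.882 in edgeR). Without its most-read circRNA that value was -0.11.

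Among MAPK-activated kinases 2 of 6 were positive. Rps6ka5, which encodes MSK1, stood at 313 ± 65.5 CPM under IL-1β, against 337 ± 145 CPM in controls, and Mapkapk2, a substrate of p38, had 20 reads, all in control 2. Among scaffolds and adaptors 1 of 4 was positive. Spag9, a JNK scaffold, stood at 331 ± 50.0 CPM under IL-1β, against 356 ± 122 CPM in controls, and Ksr2 had 0 reads under IL-1β, against 4 and 20 in controls. Among transcription factors 3 of 6 were positive: Mef2a, a target of p38 and ERK5, stood at 359 ± 92.5 CPM under IL-1β, against 242 ± 51.8 CPM in controls, and Creb1 at 1568 ± 79.0 CPM under IL-1β, against 1660 ± 257 CPM in controls.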

How the data were processed

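Per the labels' protocols, RNA was depleted of ribosomal RNA and of linear RNA (RNase R) before strand-specific sequencing. The submitters' processing notes list mm10 and Bowtie2, with the circRNA caller and its settings not given in the sources used here. All values used are whole-number counts of junction reads per circRNA and library as the authors deposited them. The authors deposited a second signal, SRPBM, beside them. The median ratio of counts to SRPBM in a library lay between 11.8 and 16.1 and served here as the SRPBM depth. Whether that ratio was the same for every circRNA was not tested. All 4 single-library tables matched the series table.

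Members were placed by RefSeq spans of GRCm38.p6. Other circRNAs went to the 1 coding gene, or failing that the 1 other gene, holding both ends. All circRNAs, and sums per host, with at least 20 reads over the 4 libraries were fitted in edgeR 4.0.16 (R 4.3.3; TMM, quasi-likelihood test, Benjamini-Hochberg at 0.05, no covariate); the SE is the log2 change over the square root of F. DESeq2 1.42.0, other scalings, filters and junction sums, a replicate block and leaving out each library were alternatives. On simulated counts edgeR recovered a minority of 2-fold and 4-fold changes over all tested hosts and none in circRNAs. Among hosts with at least 200 reads, edgeR recovered 63.1% of 4-fold changes. With 200 simulated circRNAs changed, 37 of 42 DESeq2 calls were false at 2-fold and 40 of 60 at 4-fold. These shares depend on the number changed and were not measured for the calls on the deposited counts. Python 3.11.15 and pandas 2.3.3 gave the other values.

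The genes, lists and tests were chosen with earlier results of these data known. The circRNAs named are the most-read of each gene, the 12 others with the lowest p and up to 6 with 0 reads throughout a group; of other pathway genes, the most-read and the lowest p of each role. A few such genes are not reported here. Shared ends, and junction neighbours or circRNAs held by 1 library, were picked with their values in view. Same-numbered libraries were not taken as pairs.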

Additional observations from a re-analysis of the deposited data

How the results depend on the processing

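Of the 9 hosts and the 37 other pathway hosts, 0 passed under any alternative run. Of the member circRNAs 0 passed, except 1 with the replicate block (circRNA.2480, edgeR adjusted p = 3.9e-06) and 2 with no read filter (circRNA.2480, 4.7e-13, and circRNA.2483, 2.1e-06), each resting on 1 library. Over all circRNAs 3 passed, against 61 with the block, 101 in DESeq2, 61 with no filter, 0 with junctions within 5 or 6 nt summed and between 0 and 4 with each library left out. Over all hosts 0 passed (222 at an unadjusted p under 0.05), against 20 with the block, 47 in DESeq2, 12 with no filter, 1 without each most-read circRNA and between 0 and 2 with each library left out. Same-numbered libraries showed no shared deviation (r = 0.03 over 2209 hosts and -0.03 over 3100 circRNAs), so the block shows only a shared number. Scaling by SRPBM depth took the median log2 change of all hosts to -0.24, against -0.03, and that of all circRNAs to -0.28, against -0.05. Signs turned for Map2k1 (-0.0226 with SRPBM scaling), for Dusp16 (-0.11) without its most-read circRNA, and for circRNA.2481 (0.0656 with junctions within 5 nt summed).

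With each library left out, the sign turned in these ranges of log2 change: Map3k3 -0.96 to 0.11, Map3k4 -0.17 to 8.67, Mapk14 -1.003 to 0.0428, Creb1 -0.23 to 0.13, Map2k1 -0.0747 to 0.45, Map2k2 -0.0396 to 2.03, Rps6ka5 -0.49 to 0.46, Spag9 -0.42 to 0.33, circRNA.2481 -0.82 to 0.00315, circRNA.13055 -1.61 to 0.33 and circRNA.2483 -4.04 to 0.20. The ends of 8.67 and 2.03 come from leaving out control 1 and control 2. Where a gene had 0 reads in a library, its fitted value depends on the prior count. Depth limits the rest: 96 of the 163 circRNAs had fewer than 20 reads, and where an omission left a group with 1 library, that library was assumed to vary like the others.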

Other observations

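In hosts other than Map2k5, shared ends gave sums that were not tested and were chosen after their values were seen. In Map4k4, the end at 39990299 was used by 5 circRNAs with 50.2% of the gene's reads, and summed to 72.5 ± 4.31 CPM under IL-1β, against 84.4 ± 9.82 CPM in controls (mean ± SD, n = 2 each). In Map3k4, the end at 12272220 was used by 5 circRNAs with 61.6% of the reads, and had 42 and 23 reads under IL-1β, against 33 and 0 in controls. In Map3k20, the end at 72355558 had 0 and 10 reads under IL-1β, against 24 and 47 in controls over 4 circRNAs, while the end at 72418047 had 8 and 77 reads under IL-1β, against 40 and 61 in controls. In Map3k3 the offset of 6 nt at both ends that separates circRNA.2483 from circRNA.2481 also separated circRNA.2487, with 3 reads in IL-1β 2, from circRNA.2484.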
